A study of Mus musculus with 6 samples.

Results

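The immunoglobulin variable genes are the gene symbols that start with Igkv (kappa light chain), Ighv (heavy chain) or Iglv (lambda light chain). Of 31276 genes with at least 1 UMI (a unique molecular identifier, which marks 1 captured mRNA molecule) in the 6 libraries, 195 were variable genes: 93 Igkv, 99 Ighv and 3 Iglv genes. The cells that carry them were chosen by a value, the sum of Jchain and Mzb1 UMIs, and a barcode with at least 10 of these was called a plasma cell. This gave 350 plasma cells of 25978 barcodes. Jchain, Mzb1 and the number of such cells are therefore given as a description of how the cells were found.

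The tissue was the obstructed kidney of C57BL/6 mice, taken 7 days after unilateral ureteral obstruction, the ligation of 1 ureter that injures and scars the kidney on that side. Both groups had the obstruction, and they differed in treatment: SH045, a TRPC6 inhibitor per the study's title, in 3 mice, or Vehicle in 3 mice. TRPC6 is a calcium-permeable cation channel. Each library is 1 mouse and is named by its group and replicate number, from SH045 1 to Vehicle 3. The contralateral kidneys and the spatial samples were not analysed here, so no library of an unobstructed kidney stands beside these values.

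Each developing B cell joins 1 variable gene segment to shorter joining segments (and, in the heavy chain, a diversity segment), and the joined exon is transcribed together with a constant region such as Igkc (kappa) or Igha (the heavy chain of IgA). A plasma cell, the antibody-secreting end stage of that cell, passes the same joined gene to its daughters, so the variable gene in its mRNA is a partial label of its lineage. Cells of 1 lineage share both variable genes, but cells of different lineages can share them too. The mRNA was caught by its poly(A) tail, while the variable exon lies at the other end, so that only a small part of the antibody mRNA was counted on a variable gene.

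The reference sequences below show what separates the members that the results turn on. Igkv6-32 (chromosome 6, 70074024 to 70074603, minus strand) and Igkv6-14 (chromosome 6, 70434952 to 70435476, minus strand) belong to the same Igkv6 family. In the comparison of the groups both stayed called in the 14 alternatives in which they could be tested. The last 240 coding bases of both genes are given, in GENCODE M21 on GRCm38, with capitals where the pair differs.
Igkv6-32: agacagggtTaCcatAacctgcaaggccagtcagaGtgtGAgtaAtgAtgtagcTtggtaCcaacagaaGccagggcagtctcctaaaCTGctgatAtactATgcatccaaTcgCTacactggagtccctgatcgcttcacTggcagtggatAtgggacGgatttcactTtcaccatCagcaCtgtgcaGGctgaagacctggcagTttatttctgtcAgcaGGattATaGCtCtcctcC
Igkv6-14: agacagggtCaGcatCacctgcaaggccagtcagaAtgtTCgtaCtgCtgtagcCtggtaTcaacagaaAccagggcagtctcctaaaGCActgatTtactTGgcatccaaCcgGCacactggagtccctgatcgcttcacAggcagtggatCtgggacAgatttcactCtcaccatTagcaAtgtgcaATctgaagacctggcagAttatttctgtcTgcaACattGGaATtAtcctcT
The pair differed at 38 of these 240 positions, with no gaps, and over the whole coding sequence of 347 bases the identity was 81.6%. Igkv6-15 and Ighv10-3 are the pair of genes found together in the most cells of 1 library, and Iglv1 is the most abundant member. Their last 150 coding bases follow, with capitals after the last in-frame cysteine codon, which is the germline start of the third complementarity-determining region, where joining takes place.
Igkv6-15: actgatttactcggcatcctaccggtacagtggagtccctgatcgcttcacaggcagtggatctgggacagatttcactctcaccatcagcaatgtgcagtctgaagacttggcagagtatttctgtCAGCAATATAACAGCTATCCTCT
Ighv10-3: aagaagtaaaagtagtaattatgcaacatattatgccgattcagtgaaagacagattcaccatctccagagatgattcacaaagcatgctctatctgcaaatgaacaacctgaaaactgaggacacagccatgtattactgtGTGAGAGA
Iglv1: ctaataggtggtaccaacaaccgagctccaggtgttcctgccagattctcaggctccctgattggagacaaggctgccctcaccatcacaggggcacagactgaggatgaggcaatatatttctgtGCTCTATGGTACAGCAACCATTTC
Igkv6-15 lies at 70406469 to 70406992 on chromosome 6, Ighv10-3 at 114523441 to 114523905 on chromosome 12 and Iglv1 at 19085017 to 19085500 on chromosome 16, all on the minus strand, and each has 2 exons in the annotation. Near-identical copies are common among the members. Of 175 members annotated as functional variable genes, 88 had another gene of their chain with at least 95% identical coding bases, and 16 had one with at least 98%. How the authors' counting divided reads between such copies was not given in the sources used here, so counts of single members are uncertain to that extent. The other 20 members are annotated as pseudogenes and held 78 of the 48428 variable gene UMIs.

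Libraries SH045 1 and SH045 2 shared 52 cell barcodes, while the other 14 pairs of libraries shared 6 to 20. The shared barcodes of that pair also had alike expression (median correlation of 0.687 across genes, against 0.38 to 0.487 in the other pairs), and SH045 2 held more UMIs in 51 of 52, with a median ratio of 8.67. They included 2 plasma cells, with 2956 and 2993 UMIs in SH045 1 against 25036 and 25523 in SH045 2. Each result was recomputed without the 52 barcodes. All 11 library measures kept their direction, and the same 6 members were called by edgeR. Total UMIs per library ran from 21186872 to 32256602.

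The plasma cells were checked against markers that their rule had not used. Of the 350 cells, Igkc was found in 346 (against 42.8% of the other barcodes) and Xbp1, a transcription factor of secretory cells, in 340 (against 35.0%). Tnfrsf17, the plasma cell receptor BCMA, was found in 230 against 0.172% of the other barcodes, and Prdm1 in 90 against 2.57%. Markers of mature B cells were rare among them (Ms4a1 in 9 and Pax5 in 3), although Cd79a, a chain of the B cell receptor complex, was found in 232. Siglech, which marks plasmacytoid dendritic cells, another source of Jchain and Mzb1, was found in 2. Of the other markers listed for those cells, Ccr9 was found in 9, Cox6a2 in 3 and Klk1 in 19. Bst2 and Tcf4 were common, in 86.9% and 70.3% of plasma cells against 43.2% and 29.0% of the other barcodes. Macrophage RNA was present at a low level, with C1qb in 40.9% of plasma cells and 53.3% of the others. Just outside the threshold, 25 barcodes had 5 to 9 UMIs of Jchain and Mzb1 and a median of 0 variable gene UMIs. Just inside, 12 had 10 to 19 and a median of 2. The 338 cells with 20 or more had a median of 101.

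Plasma cells were few in 2 of the 3 SH045 libraries. They numbered 73 in SH045 1, 14 in SH045 2 and 19 in SH045 3, and 53 in Vehicle 1, 116 in Vehicle 2 and 75 in Vehicle 3. As a share of barcodes this was 1.91%, 0.314% and 0.437% with SH045, and 1.16%, 2.58% and 1.75% with Vehicle. SH045 1 lay above Vehicle 1 and Vehicle 3, so the groups overlapped, and the means of 0.887% ± 0.888 and 1.83% ± 0.71 (SD, n = 3 each) did not differ beyond the spread (two-sided exact permutation p = 0.3, where 3 against 3 can reach no less than 0.1). Without SH045 1 the SH045 mean was 0.376%. The share counts the cells that the rule's own values found, so its test is given as a description and supports neither a difference nor its absence. The p-values measure the spread between these 6 mice, with 1 library each.

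Variable gene UMIs were lowest in the 2 libraries with the fewest plasma cells. Libraries SH045 1, 2 and 3 held 6059, 1476 and 1292 variable gene UMIs, and Vehicle 1, 2 and 3 held 5749, 20162 and 13690. Between 92.96% and 97.9% of them lay in the plasma cells. Scaled to the total UMIs of the library as CPM, the level was 286 in SH045 1, 59.5 in SH045 2 and 58.3 in SH045 3, against 270, 625 and 509 in the Vehicle mice. SH045 1 was again inside the Vehicle range, and the groups did not differ beyond their spread (135 ± 131 against 468 ± 181 CPM, SD, n = 3, exact permutation p = 0.2). In whole-library sums fewer plasma cells and less antibody mRNA per cell cannot be told apart, so the same genes were next counted within cells.

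The median plasma cell held more variable gene UMIs in each Vehicle library than in any SH045 library, and in Vehicle 2 and Vehicle 3 it also held more UMIs in all. The median plasma cell had 35, 61 and 40 variable gene UMIs in SH045 1 to 3, and 67, 128 and 139 in Vehicle 1 to 3. The groups did not overlap, and the difference had the smallest p that the design allows (exact permutation p = 0.1, Benjamini-Hochberg adjusted p = 0.4 over 10 measures). The median depth of the same cells was 9411, 12003 and 8639 UMIs with SH045 against 11783, 13481 and 15843 with Vehicle. Taken as a share of the cell's UMIs, variable genes made up 0.513%, 0.620% and 0.478% with SH045 and 0.547%, 0.895% and 0.846% with Vehicle, and these groups overlapped (exact permutation p = 0.2). With each plasma cell thinned at random to 5000 UMIs, which left out 23 of 106 SH045 cells and 21 of 244 Vehicle cells, the medians were 35, 31.5 and 35.5 against 27, 45.5 and 44. At equal depth the means of 34 and 38.8 UMIs overlapped in their libraries (exact permutation p = 0.4).

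**Figure D1:**
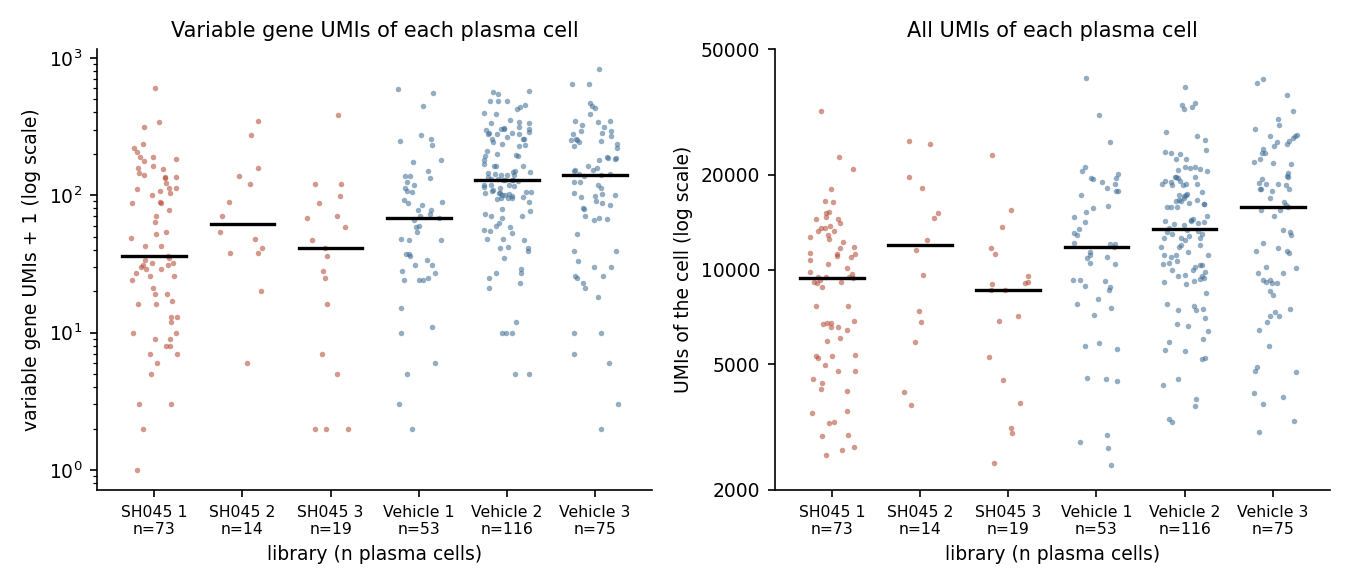
Variable gene UMIs (left, plus 1) and all UMIs (right) of each of the 350 plasma cells on log scales, by library, with the library median as a bar. The 3 SH045 medians of variable gene UMIs (35, 61 and 40) lie below the 3 Vehicle medians (67, 128 and 139), and on the right the medians of Vehicle 2 and Vehicle 3 are the highest while SH045 2 lies just above Vehicle 1.

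Cells outside the plasma cell gate held few variable gene UMIs. A variable gene UMI was found in 98.6% of the plasma cells of SH045 1 (72 of 73) and in 100% of those of every other library, at the depths given above. Macrophages, which make no antibody, had such a UMI in 2.95%, 0.843% and 0.969% of barcodes with SH045 and in 2.67%, 6.22% and 8.52% with Vehicle, at median depths of 3314, 3273 and 3421 against 2904, 4132 and 3913. A barcode outside the gate held at most 9. B cell barcodes numbered 40, 11 and 17 with SH045 and 15, 17 and 21 with Vehicle and held 3 to 26 variable gene UMIs per library in all.

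Within a plasma cell 1 kappa gene and 1 heavy gene took nearly all UMIs of the chain. Of 257 plasma cells with at least 10 Igkv UMIs, 255 had a dominant gene, here a gene with at least 50% of the cell's UMIs of that chain. The median share of the top Igkv gene was 98.6%, and 217 cells had 90% or more on it. Of 134 cells with at least 10 Ighv UMIs, 133 had a dominant gene, with a median share of 100%. As background, a B lineage cell usually keeps 1 productive rearrangement per chain, which is known as allelic exclusion. A second Igkv gene with at least 10 UMIs was found in 17 cells, and a second Ighv gene in 1.

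The variable genes in use were many, and few cells shared each. The 255 cells used 60 Igkv genes and the 133 cells used 57 Ighv genes. Igkv1-110 and Igkv1-135 were dominant in 17 cells each, the most of any Igkv gene, and Ighv3-6 in 16, the most of any Ighv gene. By family, Igkv1 was dominant in 20% of the cells, Igkv4 in 14.1% and Igkv6 in 13.7%, while Ighv1 took 39.1% and Ighv3 took 18.8%. Of the 195 members, 12 had a UMI in every library, 57 had one in a single library and 62 had fewer than 10 UMIs in all. For 117 members 1 cell held at least 50% of all their UMIs, so the total of such a member is mostly the content of 1 cell. Among the 51 members with at least 100 UMIs this held for 7.

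**Figure D2:**
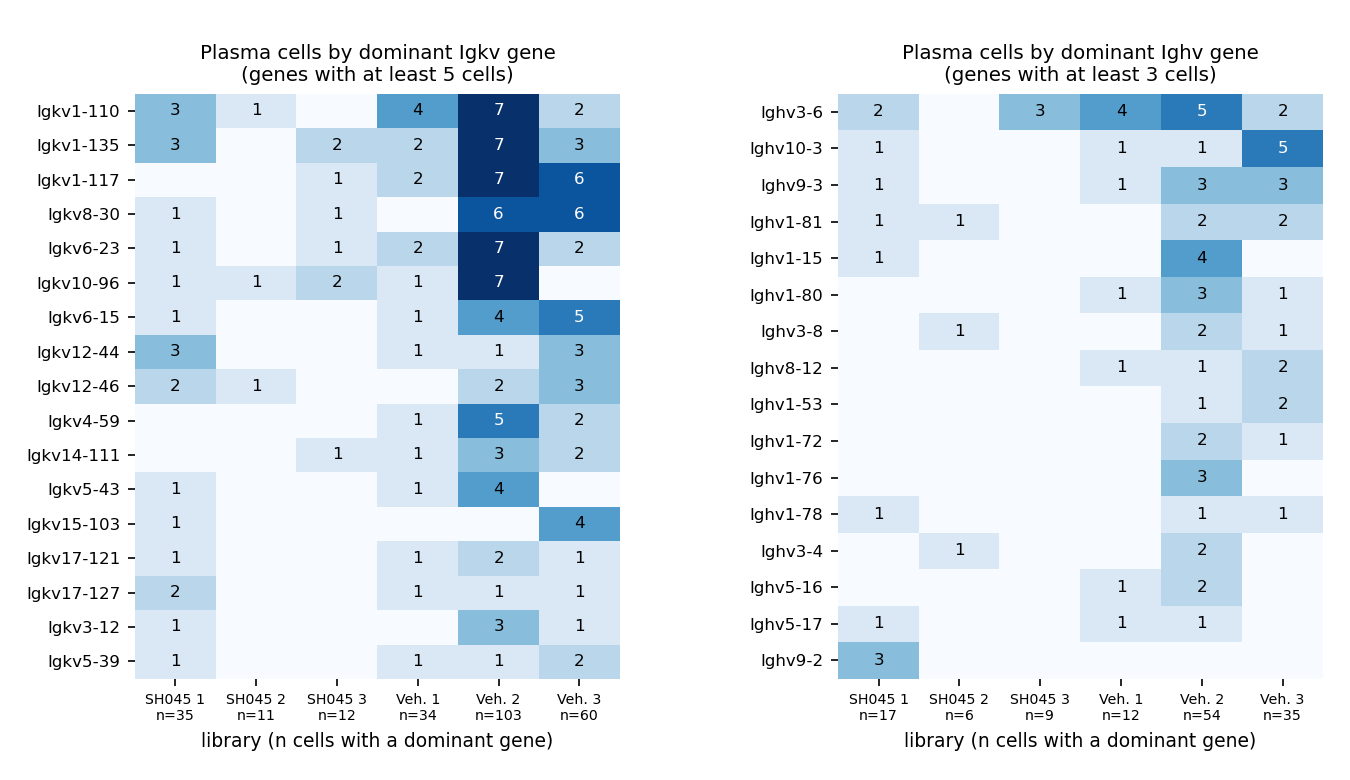
Number of plasma cells whose dominant Igkv gene (left, genes with at least 5 cells) or Ighv gene (right, genes with at least 3 cells) is the one on the vertical axis, by library, with the count in each field (blank for 0) and a darker field for more cells. Igkv1-110 is spread over 5 libraries with 1 to 7 cells each, and Ighv10-3 has 5 of its 8 cells in Vehicle 3.

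The leading Igkv gene was a different one in each library, and in the SH045 libraries and Vehicle 1 most of its UMIs came from 1 cell. In SH045 1 the most abundant Igkv gene was Igkv12-44 with 240 UMIs, of which 196 lay in 1 cell. In SH045 2 it was Igkv4-70 with 70 UMIs (42 in 1 cell), and in SH045 3 it was Igkv1-135 with 197 UMIs (154 in 1 cell). Vehicle 1 was led by Igkv8-21 with 281 UMIs (193 in 1 cell), Vehicle 2 by Igkv8-30 with 822 UMIs over 6 cells (296 in the richest) and Vehicle 3 by Igkv6-15 with 808 UMIs over 5 cells (235 in the richest). Among heavy genes Ighv3-6 led in SH045 1 (217 UMIs), SH045 3 (83), Vehicle 1 (155) and Vehicle 2 (450). Ighv1-26 led in SH045 2 with 59 UMIs, all in 1 cell, and Ighv9-3 led in Vehicle 3 with 408, of which 310 lay in 1 cell. The second in rank were Igkv10-94 (167 UMIs) and Ighv2-5 (155) in SH045 1, Igkv1-88 (46) and Ighv3-8 (42) in SH045 2, and Igkv8-30 (84) and, tied, Ighv5-6 and Ighv9-1 (27 each) in SH045 3. In the Vehicle libraries they were Igkv6-23 (159 and 787 UMIs) and Ighv9-3 (67 and 125) in Vehicle 1 and 2, and Igkv8-30 (700) and Ighv3-6 (288) in Vehicle 3.

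Dominance was measured over UMIs and over cells. The top Igkv gene took 16.8%, 17.3% and 33.2% of Igkv UMIs in SH045 1 to 3, and 18.5%, 11.3% and 15.2% in Vehicle 1 to 3, and the groups overlapped (exact permutation p = 0.3). The effective number of Igkv genes, the inverse of the summed squared shares, was 13.8, 10.8 and 6.25 with SH045 and 14.3, 19.1 and 14.3 with Vehicle. All 3 SH045 values were below the Vehicle values (exact permutation p = 0.1, adjusted p = 0.4), in libraries that held 35, 11 and 12 cells with a dominant Igkv gene against 34, 103 and 60. The chance that a pair of plasma cells of a library shares its dominant Igkv gene, a measure whose expected value does not fall with the number of cells, was 2.52%, 1.82% and 3.03% with SH045 and 1.96%, 3.12% and 3.62% with Vehicle. These values overlapped (2.46% ± 0.61 against 2.90% ± 0.85, SD, n = 3, exact permutation p = 0.4).

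For heavy genes the groups overlapped in each of these measures. The top Ighv gene took 21.2%, 26.2% and 30.9% of Ighv UMIs with SH045 and 30.3%, 22.7% and 22.03% with Vehicle (exact permutation p = 0.9). Effective Ighv genes numbered 9.52, 6.74 and 7.23 against 7.72, 13.4 and 10.2 (exact permutation p = 0.2). The chance of a shared dominant Ighv gene could be given where a library had at least 10 such cells, which was 3.68% in SH045 1 and 9.09%, 2.10% and 3.03% in Vehicle 1 to 3, and it was not tested.

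Most plasma cells found by Jchain and Mzb1 were of the IgA class. Whether this way of finding cells favours a class was not tested. Igha was the dominant heavy constant gene in 328 of 349 cells, with 67, 12 and 17 cells in SH045 1 to 3 and 51, 113 and 68 in Vehicle 1 to 3. Ighg2c was dominant in 10 cells (5 in SH045 1, 2 in SH045 2 and 3 in Vehicle 3), Ighg2b in 6, Ighg1 in 3 and Ighm in 2. The share of class-switched cells was 100% in 5 libraries and 97.3% in Vehicle 3 (exact permutation p = 1). By light chain, 337 cells had more Igkc than Iglc UMIs and are called kappa-type, and 13 were lambda-type, of which SH045 1, 2 and 3 held 4, 0 and 1 and Vehicle 1, 2 and 3 held 2, 3 and 3.

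Cells that share both genes can be members of 1 expanded lineage, and such groups were small in every mouse. With at least 10 UMIs of each chain, 121 plasma cells had both a dominant Igkv and a dominant Ighv gene, and they formed 100 different pairs. Of these pairs 96 occurred in 1 library only, 3 in 2 libraries and 1 in 3. Within a library, 11 groups of at least 2 cells shared a pair: 2 groups in SH045 1, 4 in Vehicle 2, 5 in Vehicle 3 and none in SH045 2, SH045 3 or Vehicle 1. The grouped cells were 4 of 26 with SH045 and 23 of 95 with Vehicle, and no library with 10 or fewer such cells had a group. By library the share was 33.3% of 12 cells in SH045 1, 19.6% of 51 in Vehicle 2 and 38.2% of 34 in Vehicle 3. SH045 1 thus lay between the 2 Vehicle libraries that had groups. The other libraries had 6, 8 and 10 paired cells, and the shares were not tested.

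The largest group was Igkv6-15 with Ighv10-3, the pair printed above, in 5 IgA cells of Vehicle 3. Their richest gene counts ran from 84 to 235 UMIs for Igkv6-15 and from 25 to 57 for Ighv10-3, and the pair made up 14.7% of that library's paired cells. The same pair occurred in 1 cell of another library. Igkv13-84 with Ighv1-15 was found in 3 IgA cells of Vehicle 2 and nowhere else, and all 3 also carried UMIs of the joining segment Ighj3. Igkv8-30 with Ighv3-6 was found in 3 cells of Vehicle 2 and 2 of Vehicle 3, and it was the pair seen in 3 libraries, with 6 cells in all. In SH045 1, 2 Ighg2c cells shared Igkv10-94, Ighv2-5, a second kappa gene (Igkv4-74, with 31 and 24 UMIs) and UMIs of Igkj2 and Ighj4. A group could also hold more than 1 class: in SH045 1 Igkv4-68 with Ighv9-2 was found in 1 IgA cell and 1 Ighg1 cell, and in Vehicle 3 Igkv1-117 with Ighv9-3 in 1 IgA and 1 Ighg2b cell. Of the 11 groups, 9 had cells of a single class.

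**Figure D3:**
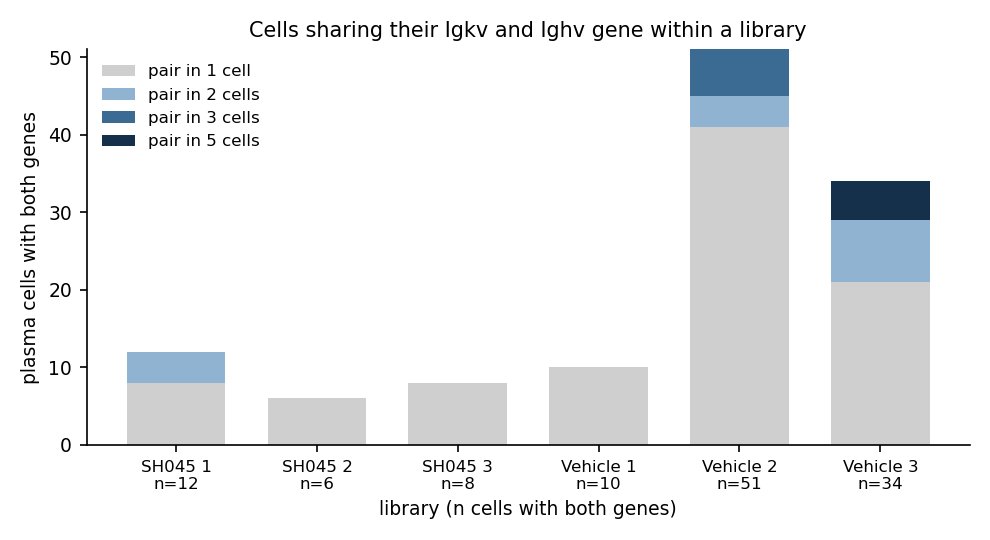
Plasma cells with both a dominant Igkv and a dominant Ighv gene (vertical axis, number of cells) by library, coloured by the number of cells of that library with the same pair. Groups of 2 or more cells appear in SH045 1 (4 cells), Vehicle 2 (10 cells) and Vehicle 3 (13 cells), and the 5-cell pair is in Vehicle 3.

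A lower limit of 3 UMIs per chain gave 237 paired cells and 184 pairs, with 27 groups, 6 in SH045 1 and 21 in the Vehicle libraries. The largest groups then had 5 cells each: Igkv1-110 with Ighv1-81 and Igkv1-135 with Ighv1-69 in Vehicle 2, and again Igkv6-15 with Ighv10-3 in Vehicle 3. SH045 2 and SH045 3, with 10 paired cells each, still had no group, and the grouped share was 32.5% in SH045 1 and 15.4%, 31.9% and 33.3% in Vehicle 1 to 3.

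Whole-library sums were compared with edgeR's quasi-likelihood test over all genes, with Benjamini-Hochberg adjustment and a limit of 0.05. Of 16610 genes tested, 4.61% were called, 1.64% lower and 2.97% higher with SH045. Of the 195 members 40 passed the filter on low counts, and 6 of these were called, all lower with SH045. A member that is near 0 with SH045 passes this filter only through the Vehicle libraries, so the direction and the number of calls among the 40 are no evidence about the members as a group. Without the filter edgeR called 9 of all 195 members (4.62%), all lower, beside 4.77% of 31276 genes (2.13% lower and 2.64% higher). DESeq2 called 17 of 76 members, all lower, beside 11.3% of 17302 genes, 5.12% lower and 6.2% higher. The median log2 fold change of the 40 was -2.19 against -0.01 over all genes tested. Among the 40, 16 (40%) had groups that did not overlap, all lower with SH045. Of all genes tested 33.8% did not overlap, 7.09% lower and 26.7% higher with SH045. The filter bears on this count and on the median too, so neither is evidence about the members as a group.

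Igkv6-32 and Igkv6-14, both part of earlier results of these data, had 1 and 0 UMIs over the SH045 libraries. Igkv6-32 had 1, 0 and 0 UMIs in SH045 1 to 3 and 42, 132 and 55 in Vehicle 1 to 3, a ratio of CPM of 194 with a 95% exact counting interval from 34.5 to 7697 (edgeR adjusted p = 0.00493). Igkv6-14 had 0 UMIs with SH045 and 30, 132 and 60 in Vehicle 1 to 3. Against a floor of 3 counts in all for the SH045 group, the Vehicle level was 62.7-fold higher (edgeR adjusted p = 0.0118). The floor and the interval treat UMIs as independent, while 215 of the 222 Igkv6-14 UMIs lay in 4 cells. They therefore set no bound on a difference in cells. Both genes stayed called when any 1 library was left out, with edgeR adjusted p up to 0.0354 and 0.0448, in sums that draw on the same few cells. Neither gene could be tested in sums without plasma cells or without the richest barcode of each variable gene. In sums over plasma cells alone both were the only genes of 3285 called (0.0609%, edgeR adjusted p = 0.00116 for each). Those sums hold the same few cells, and both genes pass the filter there only through the Vehicle libraries, so this call is no separate evidence.

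These UMIs lay in a handful of cells. Igkv6-32 had at least 3 UMIs in 5 plasma cells: 2 of Vehicle 1 (26 and 13 UMIs), 2 of Vehicle 2 (82 and 47) and 1 of Vehicle 3 (53). The 5 cells carried 4 different Ighv genes, with Ighv1-9 in 1 cell of Vehicle 1 and in the cell of Vehicle 3. In 2 of the 5 another kappa gene stood beside it, Igkv1-122 with 12 UMIs and Igkv1-135 with 62. Igkv6-14 was found in 4 cells, with 28 UMIs in Vehicle 1, 108 and 20 in Vehicle 2 and 59 in Vehicle 3, and each had a different Ighv gene. The cell of Vehicle 3 held more UMIs of Igkv4-61 (77). All 9 cells were IgA cells. The cells of each gene thus came from 3 mice and did not share 1 pair of genes.

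Counted by cells, both genes were rare in Vehicle too. Cells with Igkv6-32 were 5 of 244 with Vehicle (2.05%, exact 95% interval 0.669% to 4.72%). With SH045 they were 0 of 106, for which the same kind of interval has an upper limit of 3.42%. Cells with Igkv6-14 were 4 of 244 (1.64%, interval 0.448% to 4.14%) and 0 of 106. These cells are pooled over 3 mice a group, with 73 of the 106 from SH045 1, and are not replicates of the treatment. The limits and intervals cover counting error only, and the shares of cells were not tested. In cells thinned to 5000 UMIs, 5 and 4 of 223 Vehicle cells and 0 of 83 SH045 cells had a UMI of Igkv6-32 and Igkv6-14.

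The other 4 called members also came from few cells. Igkv8-21 (chromosome 6, 70314895 to 70315472, minus strand) had 1, 0 and 4 UMIs with SH045 and 281, 212 and 227 with Vehicle (log2 fold change -7.11 ± 0.66, SE, edgeR adjusted p = 0.00493). Of the Vehicle UMIs, 193 and 71 lay in 2 cells of Vehicle 1 that shared Ighv5-17, 206 in 1 cell of Vehicle 2 and 210 in 1 cell of Vehicle 3. The 2 cells of Vehicle 1 differed in joining segments, with 2 UMIs of Igkj2 and 1 of Igkj3 in 1 cell and 29 of Igkj5 in the other. The nearest gene to Igkv8-21, Igkv8-30, has 92.6% identical coding bases. Over plasma cells alone Igkv8-21 was not called (edgeR adjusted p = 0.167). With any 1 library left out its edgeR adjusted p was 0.00341 to 0.0354, and the lowest of its alternatives was 4.45e-19 (DESeq2). Those sums draw on the same few cells. Cells with at least 3 UMIs of Igkv8-21 were 1 of 106 with SH045 (0.943%, exact interval 0.0239% to 5.14%). With Vehicle they were 5 of 244 (2.05%, interval 0.669% to 4.72%). These intervals overlapped, and the shares, pooled over mice as above, were not tested.

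Igkv4-59 (chromosome 6, 69438218 to 69438757, minus strand) was found in 9 Vehicle cells and in no SH045 cell. It had 0 UMIs with SH045 and 24, 164 and 143 in Vehicle 1 to 3 (edgeR adjusted p = 0.0236). The Vehicle level was 93.5-fold higher than the same floor, which again sets no bound on a difference in cells. Its 9 cells (1, 5 and 3) carried 6 different Ighv genes, and 2 cells of Vehicle 2 shared Ighv1-78. They were 3.69% of Vehicle plasma cells (exact 95% interval 1.70% to 6.89%) against 0 of 106, pooled over mice as above and not tested. The call was lost without SH045 1 (edgeR adjusted p = 0.0726), SH045 2 (0.0559), Vehicle 2 (0.0736) or Vehicle 3 (0.0621). Igkv4-70 has 96.3% of the same coding bases.

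Igkv1-117 (chromosome 6, 68121046 to 68121827, plus strand) had 8, 0 and 15 UMIs with SH045 and 102, 462 and 436 with Vehicle (log2 fold change -5.25 ± 0.82, SE, edgeR adjusted p = 0.0240). At least 3 UMIs were found in 20 plasma cells, 2 of 106 with SH045 (1.89%) and 18 of 244 with Vehicle (7.38%), with 10 different Ighv genes among the 15 that had one. It was the 1 member still called in sums without any plasma cell (edgeR adjusted p = 0.0497) and after removing the richest barcode of each variable gene in each library (0.0180), in which 4 and 14 members could be tested. It was not called over plasma cells alone (edgeR adjusted p = 0.211) or without the filter on low counts (0.0859). Without SH045 1, Vehicle 2 or Vehicle 3 the edgeR adjusted p was 0.0911, 0.0738 and 0.0628. Igkv1-110, dominant in 17 cells, has 97.2% of its coding bases.

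Ighv8-12 (chromosome 12, 115647945 to 115648387, minus strand), the only called heavy gene, had 5, 0 and 0 UMIs with SH045 and 24, 20 and 36 with Vehicle (log2 fold change -3.90 ± 0.86, SE, edgeR adjusted p = 0.0475). It was found in 1 cell of SH045 1 (4 UMIs) and 2 cells of each Vehicle library (5 to 17 UMIs). Leaving out any library ended the call (edgeR adjusted p of 0.0600 to 0.122).

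**Figure D4:**
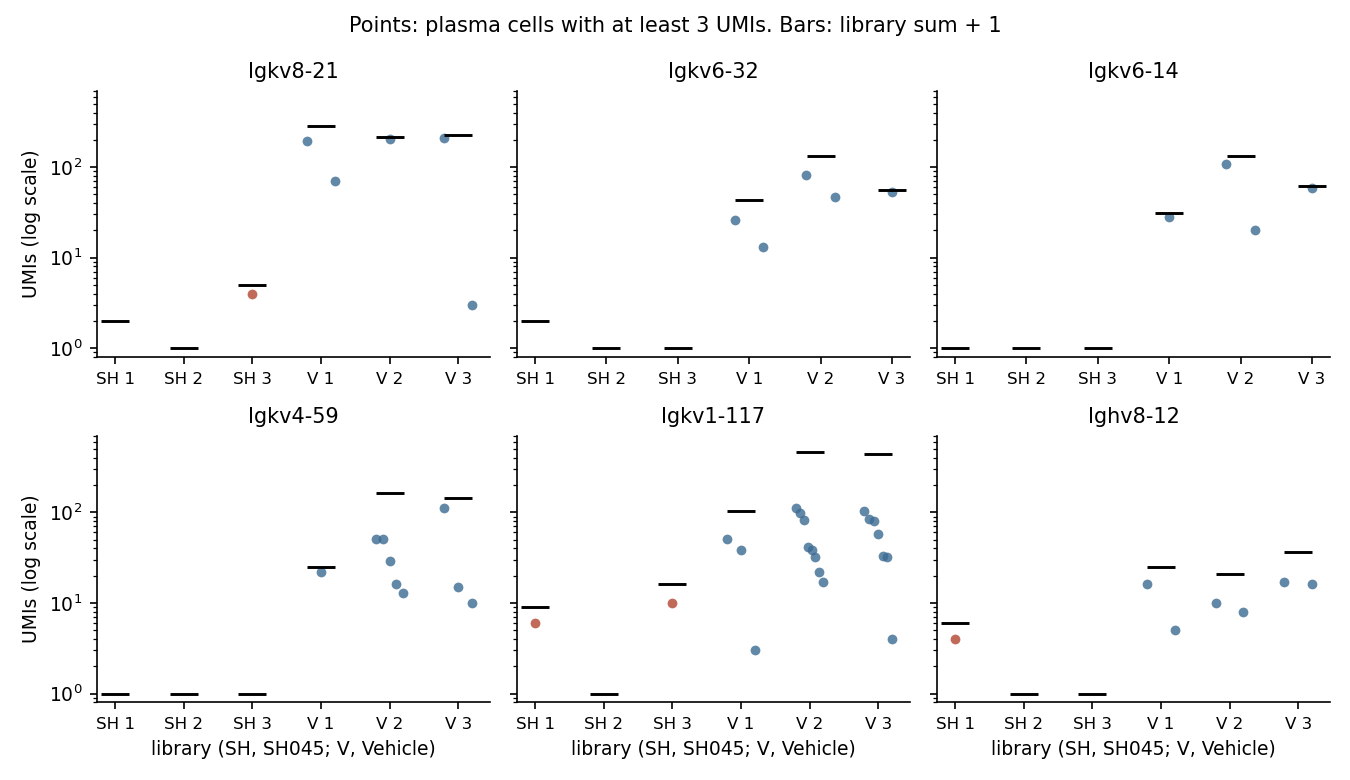
UMIs of the 6 members called lower with SH045, by library (horizontal axis) on a log scale. Each point is a plasma cell with at least 3 UMIs of the gene and each bar is the library's sum plus 1; in the Vehicle libraries 1 to 8 cells make up most of each sum.

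More UMIs with SH045 than with Vehicle were found for 37 of the 195 members, and no member was called higher with all 6 libraries. Ighv2-5 had 155 UMIs in SH045 1 and 156 against 1 over the groups, nearly all in the 2 Ighg2c cells that share Igkv10-94. Ighv1-26 had 79 UMIs with SH045 against 30 with Vehicle (log2 fold change 1.45 ± 1.12, SE, edgeR adjusted p = 0.439), and Igkv10-94 had 169 against 28. Others, named after their values were seen, were Ighv9-2 with 124 UMIs against 14, Igkv4-74 with 95 against 3 and Ighv1-50 with 68 against 1. Igkv4-74 was called higher by edgeR when SH045 2 was left out. Ighv2-5, Igkv10-94, Igkv4-74, Ighv9-2 and Ighv1-50 did not pass the filter on low counts. Of the other members named above, Igkv6-23 (log2 fold change -4.06 ± 0.88, SE, edgeR adjusted p = 0.0563), Igkv6-15 (-4.92 ± 1.19, 0.0704) and Ighv9-3 (-4.33 ± 1.07, 0.0718) missed the limit. Igkv8-30, Ighv10-3, Ighv3-6, Ighv3-8, Igkv1-135, Igkv12-44 and Igkv4-70 had adjusted p between 0.113 and 0.853.

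Iglv1, a lambda variable gene, made up most of the variable gene UMIs, and nearly all of it was counted in kappa-type cells. It had 3459, 828 and 412 UMIs with SH045 and 3627, 10615 and 6321 with Vehicle, 25262 of 48428 in all, and 53.4% of the variable gene UMIs of plasma cells. Of the Iglv1 UMIs in plasma cells 94.9% came from kappa-type cells. The gene was detected in 323 of 337 of these, with a median of 34 UMIs, beside a median of 4150 Igkc UMIs and 31 Iglc UMIs. In 183 of them it had more UMIs than the cell's top Igkv gene. In the 13 lambda-type cells the median was 93 UMIs of Iglv1 beside 3877 of Iglc. Per 1000 light constant UMIs the kappa-type cells held 14.4, 11.5 and 9.76 Iglv1 UMIs with SH045 and 12.0, 13.5 and 11.1 with Vehicle, and the groups overlapped.

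Outside plasma cells Iglv1 was found in 0.115% to 1.55% of barcodes per library. The coding bases of Iglv1 share a run of 104 bases with Iglv2, to which they are 96.9% identical, and Iglv2 had 122 UMIs. With the Igkc transcript the longest shared run was 7 bases on the same strand and 8 on the other. Whether the Iglv1 UMIs of kappa-type cells are joined lambda mRNA, unjoined transcript or reads assigned from elsewhere was not tested. All 93 Igkv genes together had 16542 UMIs. Iglv1 itself was at 71.8 ± 79.6 CPM with SH045 and 245 ± 79.7 with Vehicle (SD, n = 3, log2 fold change -2.03 ± 0.76, SE, edgeR adjusted p = 0.154). Without SH045 1 its edgeR adjusted p was 0.0257, and with other single libraries left out it reached 0.314.

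**Figure D5:**
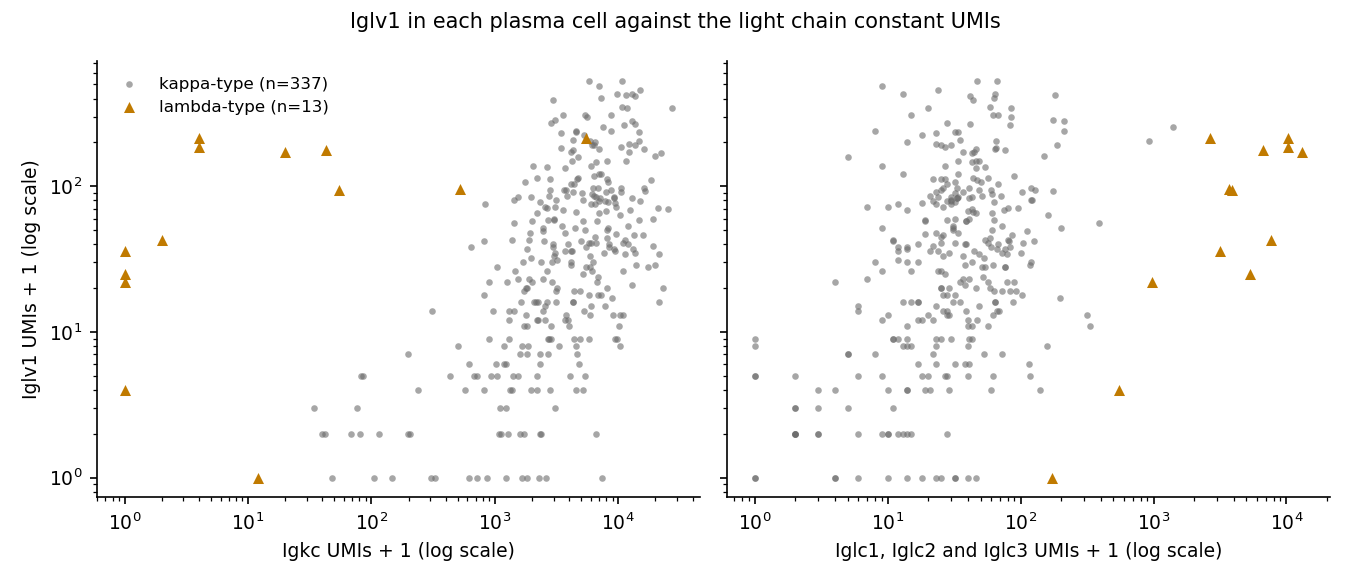
Iglv1 UMIs (vertical axis, plus 1, log scale) of each plasma cell against its Igkc UMIs (left) and its Iglc1, Iglc2 and Iglc3 UMIs (right), both plus 1 on log scales. The 337 kappa-type cells (grey) reach Iglv1 counts as high as the 13 lambda-type cells (orange triangles) while most of them hold far fewer Iglc UMIs.

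The constant genes are joined to the variable genes in the same mRNA. Of 12 constant genes 11 were tested. DESeq2 called 3 (beside 11.3% of all genes) and edgeR 1 (beside 4.61%), Ighg2b. Ighg2b was at 8.17, 7.22 and 26.2 CPM in SH045 1 to 3 and 209, 86.0 and 407 in Vehicle 1 to 3 (log2 fold change -4.23 ± 0.82, SE, edgeR adjusted p = 0.0466). That call ended when any library was left out (edgeR adjusted p of 0.0554 to 0.120) and over plasma cells alone (0.527). Igkc was at 10480, 2889 and 1933 CPM with SH045 and 13277, 23225 and 19951 with Vehicle (edgeR adjusted p = 0.0765), and Igha at 6007, 1273 and 952 against 5765, 9788 and 6786 (0.155). Without SH045 1 both passed, at an edgeR adjusted p of 0.0257. With other single libraries left out it reached 0.159 for Igkc and 0.311 for Igha. The median log2 fold change of the 11 was -1.58. Ighg1 and Ighg2c were high in single mice of both groups. Ighg1 was at 126 CPM in SH045 1, 213 in Vehicle 2 and at most 0.744 elsewhere, and Ighg2c at 412 in SH045 1, 92.95 in SH045 2, 585 in Vehicle 3 and at most 3.66 elsewhere.

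Variable gene counts were next set against the constant gene counts of the same chain. Igkv UMIs per 1000 Igkc UMIs were 6.42, 5.66 and 13.9 in SH045 1 to 3 and 5.36, 9.70 and 9.94 in Vehicle 1 to 3. Ighv UMIs per 1000 heavy constant UMIs were 7.24, 6.17 and 10.9 against 3.94, 6.02 and 8.52. The groups overlapped in both ratios.

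Of 13 plasma cell genes, which include Jchain and Mzb1, all were tested. Of these edgeR called 2, both lower with SH045 (beside 4.61% of all genes), and DESeq2 called 5 (beside 11.3%). Creld2, a chaperone of the endoplasmic reticulum, was at 51.9 ± 5.8 CPM with SH045 and 69.1 ± 1.2 with Vehicle (SD, n = 3, log2 fold change -0.62 ± 0.11, SE, edgeR adjusted p = 0.0240). Slamf7, a surface receptor of plasma cells that macrophages and killer cells also carry, was at 81.3 ± 7.2 against 141 ± 29 (log2 fold change -0.98 ± 0.18, SE, edgeR adjusted p = 0.0274). Creld2 was not called once any library was left out (edgeR adjusted p of 0.0521 to 0.0893), and Slamf7 without SH045 1 (0.115), SH045 2 (0.0788), Vehicle 1 (0.0786) or Vehicle 3 (0.0709). In plasma cells alone neither was called (edgeR adjusted p = 0.980 and 0.887), and in sums without plasma cells Slamf7 still was (0.0458). The median log2 fold change of the 13 was -0.62. It is a description only, since the list holds Jchain (-1.68) and Mzb1 (-1.29), by which the cells were found. Jchain itself, used to find the cells, was at 1946, 463 and 293 CPM with SH045 and 2133, 2861 and 2237 with Vehicle.

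Factors that draw or keep plasma cells made up the next list. Of 5 such genes 3 could be tested. Of these edgeR called 0 (beside 4.61% of all genes), and 1 had an unadjusted p under 0.05. DESeq2 called 1, Cxcl12 (beside 11.3% of all genes). Cxcl12, a chemokine that holds plasma cells in their niches, was at 42.2, 33.6 and 9.25 CPM with SH045 and 5.64, 4.50 and 3.53 with Vehicle, without overlap (log2 fold change 2.39 ± 0.52, SE, edgeR adjusted p = 0.0540). Without SH045 3 its edgeR adjusted p was 0.00230, and with other single libraries left out it reached 0.145. Of all genes tested 26.7% were likewise higher with SH045 without overlap. Tnfsf13b, the survival factor BAFF, was at 12.2 ± 2.1 and 10.6 ± 1.6 CPM (SD, n = 3, log2 fold change 0.02 ± 0.21, SE, edgeR adjusted p = 0.967), and Cxcl13, a B cell attractant, had an adjusted p of 0.746. Of 8 B cell genes edgeR called 0 and DESeq2 0, and 0 had an unadjusted p under 0.05 (median log2 fold change 0.51).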

How the data were processed

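Droplet-based single-cell RNA counts of 6 mouse kidney libraries were used, 3 per group, with genes named by the files. UMI counts per gene and barcode were deposited by the authors, built on mm10 per the submitters' processing notes; the aligner and counter are not given in the sources used here. All barcodes were used and no doublets were removed; barcodes with the highest 5% of Scrublet scores were removed in an alternative. The members and gene lists were chosen with earlier results of these data known. Library values were compared by exact permutation tests. Whole-library sums were tested with edgeR 4.0.16 (quasi-likelihood, TMM, filterByExpr, R 4.3.3), SH045 against Vehicle, with no block; DESeq2 1.42.0 was an alternative. Python 3.11.15 and scanpy 1.11.5 read the matrices. Genes named were the called members, the top 2 of each chain per library, the 3 largest shared pairs, Iglv1 and the lists; others were named after their values were seen. On simulated data with 16610 genes, edgeR called 92 of 100 genes changed 4-fold and 43 of 100 changed 2-fold. Intervals cover counting error only.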

Additional observations from a re-analysis of the deposited data

How the results depend on the processing

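Of 155 alternatives to the library measures and the number of called members, 143 were counted as alike, 7 turned direction, 3 were weaker and 2 stronger. Alike meant the same direction for a tested measure, whatever its p, and within 1.5 times for the number. For the untested chance of a shared dominant Ighv gene it meant a shift below the larger group SD. All 13 of its alternatives were so counted, although their differences ran from -2.64 to 1.12 percentage points around -1.06. The number of members called, 6 by edgeR, was 17 by DESeq2 (76 tested, beside 11.3% of all genes). It was 9 without the filter on low counts (4.62% of 195 members, beside 4.77% of all genes). In sums without plasma cells it was 1 (4 tested, beside 729 of 16610 genes), and over plasma cells alone 2 (38 tested, beside 2 of 3285 genes). Without the richest barcode of each variable gene it was 1 (14 tested, beside 772 of 16584 genes). Fewer members could be tested in those sums. With 1 library left out it was 5 to 10, beside 116 to 619 genes called in all. The difference in class-switched share, SH045 minus Vehicle, became -3.62 percentage points at a plasma cell threshold of 5 UMIs and ran from 0 to 1.33 with 1 library left out. The difference in kappa match probability became 0.672 at a dominance limit of 80%. That in top heavy gene share became -3.22 without the richest barcode and ran from -1.31 to 3.70 with 1 library left out; the cause was not tested. The median of variable gene UMIs per plasma cell differed by -66 as counted and by -4.83 after thinning, chosen after seeing the data, as were plasma-only sums and the removal of richest or shared barcodes.

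For single genes, of which Creld2 alone was called, these log2 fold changes turned sign. With the replicate block they were Ighg2c 3.81, Igkv4-70 0.15, Pou2af1 -0.0295 and Prdm1 -0.0235. Over plasma cells alone they were Creld2 0.0243, Derl3 0.18, Ighg2c 0.66, Ighv3-8 0.75, Igkv1-135 0.0741, Igkv4-70 1.27, Iglc2 0.48, Irf4 1.05, Sdc1 -0.23 and Tnfrsf17 0.17. Without plasma cells they were Fkbp11 0.67 and Iglc3 0.38, and without the highest Scrublet scores Ighg1 0.0603 and Tnfsf13b -0.000309. With 1 library left out they ran from -0.78 to 0.84 for Pou2af1, -0.17 to 0.31 for Prdm1, -0.55 to 1.68 for Cxcl13, -2.87 to 0.43 for Iglc2, -2.17 to 5.69 for Ighg2c, -0.20 to 0.14 for Tnfsf13b, -11.49 to 6.36 for Ighg1, -1.83 to 4.65 for Igkv4-70 and -5.52 to 0.21 for Igkv12-44. Whether replicate numbers pair the mice is not given by the labels and was not tested. Correlations of the deviations from the group means were 0.02, 0.09 and 0.26 for same-numbered libraries and -0.19 to 0.12 for the others. With the replicate block edgeR called 6 members, the same 6.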

Other observations

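The genes whose levels were most like the summed variable genes over the 6 libraries (Pearson r of log2(CPM + 1), 17125 genes compared, given as a description) were Gm34215 (0.995), Ccr10 (0.993), Kcnmb4os2 (0.990), H13 (0.988) and Igkc (0.988). Ccr10, a chemokine receptor of IgA plasma cells, was found in 252 of 350 plasma cells (72%) and in 0.129% of the other barcodes. It was at 6.66, 1.49 and 1.76 CPM in SH045 1 to 3 and at 7.10, 12.1 and 8.93 in Vehicle 1 to 3. The points share libraries and plasma cell numbers.

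The 17 plasma cells with a second Igkv gene of at least 10 UMIs lay in all 6 libraries, with 3, 2 and 1 in SH045 1 to 3 and 1, 5 and 5 in Vehicle 1 to 3. Igkv3-1 was the second gene in 4 of them, beside a different first gene each time. Joining segments were counted rarely, with 217 UMIs of Igkj2 and 186 of Ighj4, of which 137 lay in Vehicle 3. A single Vehicle 3 cell with Igkv1-117 and Ighv9-3 held 108 Ighj4 UMIs.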
